A study of Rattus norvegicus with 16 samples.

Results

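Primary rat microglia that had received lipopolysaccharide (LPS) together with apolipoprotein A-I (ApoA-I) were compared with untreated cells of the same kind. The comparison used the 4 libraries labelled as having both agents and the 4 Control libraries, 8 of the 16 libraries in the series. Members were taken from the library labels alone. The cells were wild type by their labels and had been kept for 12 days in vitro. Control cells received neither agent, LPS cells 100 ng/ml LPS for 20 hours, ApoA-I cells 100 ug/ml ApoA-I protein in the medium, and doubly treated cells both. Each of these 4 groups had 4 libraries. The labels do not say whether replicates came from separate animals or cultures, so a p-value here reflects spread among libraries that may be technical replicates.

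Microglia are the resident macrophages of the brain. LPS, from the outer membrane of Gram-negative bacteria, is sensed through Toll-like receptor 4 with its co-receptor CD14, and the signal passes through NF-kB and interferon regulatory factors to cytokine, chemokine and interferon-response genes while genes of the resting state are turned down. ApoA-I is the main protein of high-density lipoprotein and accepts cholesterol from macrophages through the transporter ABCA1. Comparing doubly treated with untreated cells asks which part of the transcriptome is at the resting level when both agents are present, and which part is not.

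The genes are listed by Ensembl rat identifier, and 0 of the 30560 identifiers could be paired with a symbol in the name table used here. Results therefore describe sets of genes formed by their values, with 4 identifiers as examples, and the labelled cell type was not checked against its markers. In bulk RNA, fewer cells of a type and less RNA per cell cannot be told apart.

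Total estimated counts were 13083883 to 17262380 in the Control and 13253460 to 16229104 in the doubly treated libraries. In each of the 12 replicate pairs of these groups the counts differed beyond sampling noise (chi-square 3.14 to 58.1 times its degrees of freedom), so none was treated as 1 library deposited again. A set of 8 abundant genes that rise and fall together between replicates held 4.05% to 11.9% of the counts of the Control and 6.81% to 12.8% of the doubly treated libraries, overlapping ranges (two-sided exact permutation p = 0.4). Their part in the results was not tested beyond a fit with their share as a covariate, which left 8312 calls where the fit without it had 8284.

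Doubly treated microglia were far from the untreated state. Of 11902 genes with enough counts to be tested, 8284 (69.6%) were called different from Control by edgeR's quasi-likelihood test (adjusted p below 0.05), with higher levels in 4094 (34.4%) and lower levels in 4190 (35.2%). The typical difference was small on the higher side, with a median of 0.57 log2 units, and larger on the lower side, with a median of -0.87. Of the called genes, 5487 (66.2%) lay within 1 log2 unit of Control. In 7449 of the called genes (89.9%) the 4 doubly treated libraries did not overlap the 4 Control libraries. Over all tested genes such separation was seen in 31.8% with higher and 32.3% with lower values.

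Large decreases outnumbered large increases. More than 1 log2 unit above Control lay 946 genes (7.95% of those tested), and more than 1 log2 unit below it 1851 (15.6%). At more than 2 log2 units the counts were 385 higher and 720 lower, and at more than 3 they were 210 and 284. The order turned at the far end, with 134 genes more than 4 log2 units higher and 105 more than 4 lower. LPS alone, against the same Control libraries, had 203 and 284 genes past that last bound. These are fitted changes, whose size rests on the fit where a group had no counts. The turn past 4 log2 units was not recomputed under other scalings.

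The balance of higher and lower genes rests on how libraries are scaled. With TMM scaling, the median change over all tested genes was -0.01 log2 units and 49.4% of the calls were higher. With library totals only, the median was -0.24 and 31.2% of the calls were higher. On log2(TPM + 1) the median was -0.25 and the share 27.7%. Directions of small changes are thus relative to the scaling, and decreases past 1 log2 unit outnumbered increases under each of these scalings: 2383 against 726 with library totals, and 1705 against 505 on log2(TPM + 1).

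Changes past 1 log2 unit were also counted by the level of the gene in Control. Among 961 genes at or below 1 TPM in Control, 27.0% were more than 1 log2 unit higher and 23.5% more than 1 lower in doubly treated cells. Among 3663 genes from 1 to 10 TPM the shares were 7.84% higher and 23.1% lower. From 10 to 100 TPM (5921 genes) they were 5.42% and 11.1%, and above 100 TPM (1357 genes) 5.82% and 9.06%. The lowest band cannot be read against the others, since a gene with so little transcript in Control could pass the filter on low counts by being higher in another group. How many genes did so was not counted. The Control libraries set the bands and also enter the change, and the median SE fell from 0.50 log2 units in the lowest band to 0.06 in the highest, so the bands differ in precision.

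The most abundant transcripts were compared by rank and level. Of the 100 genes with the highest mean TPM in Control, 75 were still among the top 100 in doubly treated cells, and 72 were in the top 100 of LPS cells. In doubly treated cells 23 of these 100 were called higher, 1 past 1 log2 unit, and 29 were called lower, 8 past 1 log2 unit, while 68 were within 1.5-fold of Control by the equivalence test described next. Over all tested genes 34.4% were higher, 35.2% lower and 36.4% within 1.5-fold, and among the genes above 100 TPM in Control 54.2% were within 1.5-fold, at a smaller median SE than in other genes. The Control list was chosen for high values in Control, which favours lower calls. Genes of the doubly treated top 100 leaned the other way, with 47 called higher, 20 by more than 1 log2 unit, and 14 lower. Choosing that list for high values in doubly treated libraries favours higher calls.

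Whether a gene was back at the untreated level was asked with a test of its own, since a p that misses the threshold does not show that levels are alike. A gene was called back when its change from Control lay inside plus or minus 1.5-fold by an equivalence test (a pair of one-sided tests with the SE of the edgeR fit, adjusted p under 0.05 over all tested genes). By this test 4336 of all tested genes (36.4%) were within 1.5-fold of Control, most of them genes that LPS alone had not moved far. The question of return concerns the genes that LPS alone moved by more than 1 log2 unit from Control, 1332 raised (11.2% of tested genes) and 2253 lowered (18.9%). Both comparisons use the same Control libraries, so their values are given side by side and no correlation between them is reported.

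Few of the strongly moved genes had returned. Of the 1332 LPS-raised genes, 76 (5.71%) were back within 1.5-fold of Control and 780 (58.6%) were still displaced, meaning called in the direction of LPS and more than 1 log2 unit from Control. A further 344 (25.8%) were partly displaced, called in the direction of LPS but at most 1 log2 unit away. Another 24 had crossed to below Control, and 108 (8.11%) were undecided, neither called different nor shown to be back. Of the 2253 LPS-lowered genes, 62 (2.75%) were back, 461 (20.5%) partly displaced, 1557 (69.1%) still displaced, 9 crossed to above Control and 164 (7.28%) undecided. The undecided genes of both directions had low counts, with a median of 1.22 CPM (a library-size scaled count, using TMM) against 39.3 CPM in the genes that were back, and at that depth a return was not detectable.

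**Figure D1:**
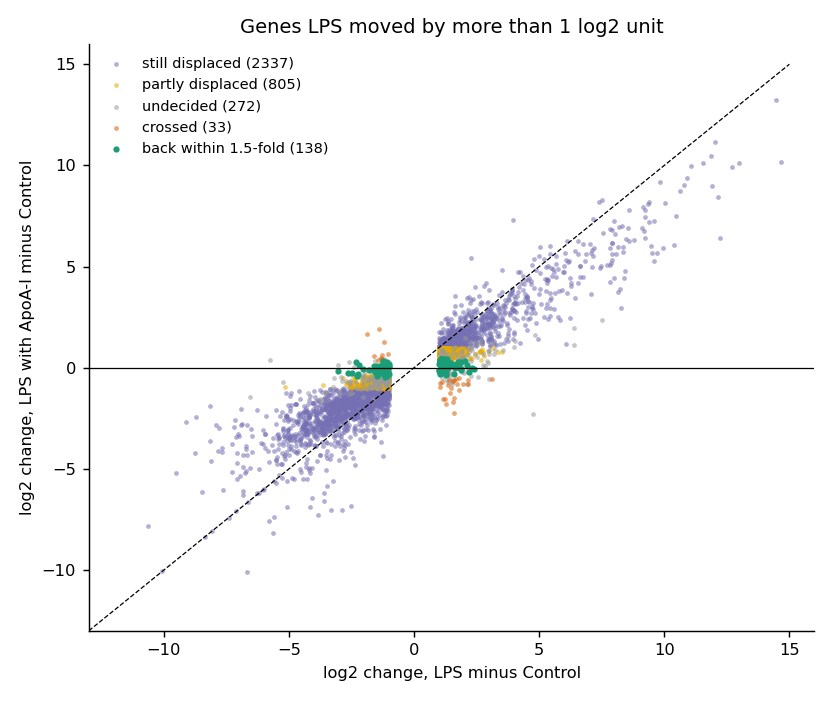
Each point is 1 of the 3585 genes that LPS moved by more than 1 log2 unit from Control, with the log2 change in LPS cells on the horizontal and in doubly treated cells on the vertical axis, both against the same Control libraries. Most points lie between the horizontal line (Control level) and the dashed diagonal (LPS level), the 138 genes that are back lie near the horizontal line, and the 33 that crossed lie beyond it.

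Which genes counted as back depended strongly on the scaling, although their number did not. With library totals only, 144 LPS-moved genes were back, and 38 of them were among the 138 found with TMM. On log2(TPM + 1) the number was 159, again with 38 shared, and 33 genes were back under all 3 scalings. The raised and lowered parts moved in opposite directions with library totals, to 39 raised and 105 lowered genes. Still displaced genes overlapped more, with 2675 under library totals, 2151 of them shared, and 1921 on log2(TPM + 1), 1620 of them shared. Choosing the LPS-moved genes against the ApoA-I libraries, which share no library with the comparison of doubly treated and untreated cells, gave 164 back genes (124 shared) and 2208 still displaced (2182 shared).

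The margin decided how many genes were called back. With a narrower margin, a rise of 25% or the matching fall, the test placed 22 LPS-moved genes, 11 raised and 11 lowered. Within 2-fold it placed 675, of which 331 were raised and 344 lowered, out of the 1332 and 2253.

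The 76 LPS-raised genes that were back had a median change of 1.17 log2 units in LPS cells and 0.18 in doubly treated cells. Per library, the median level of these genes over the Control mean was 0.18 ± 0.02 log2 units (SD, n = 4) in doubly treated and 1.19 ± 0.02 in LPS libraries. All 76 were called lower in doubly treated than in LPS cells (24.9% of all tested genes were), which the choice of these genes fixes. Most of them, 55, were slightly above Control and 21 slightly below, between -0.36 and 0.44 log2 units. In 41 the doubly treated and Control libraries overlapped. Although all were within the margin, 47 still differed from Control in the difference test. They were expressed at moderate levels, with a median over genes of 24.7 TPM in Control, 41.6 TPM in LPS and 25.2 TPM in doubly treated cells.

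The 62 LPS-lowered genes that were back had a median change of -1.20 log2 units in LPS cells and -0.13 in doubly treated cells. Their per-library median was -0.14 ± 0.05 log2 units in doubly treated and -1.23 ± 0.06 in LPS libraries (SD, n = 4 each). In doubly treated cells 45 of them lay below and 17 above Control, from -0.45 to 0.34 log2 units. All 62 were called higher than in LPS cells (26.4% of all tested genes were), again fixed by their choice, and 24 still differed from Control in the difference test. The median level was 24.2 TPM in Control, 8.16 TPM in LPS and 19.1 TPM in doubly treated cells.

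**Figure D2:**
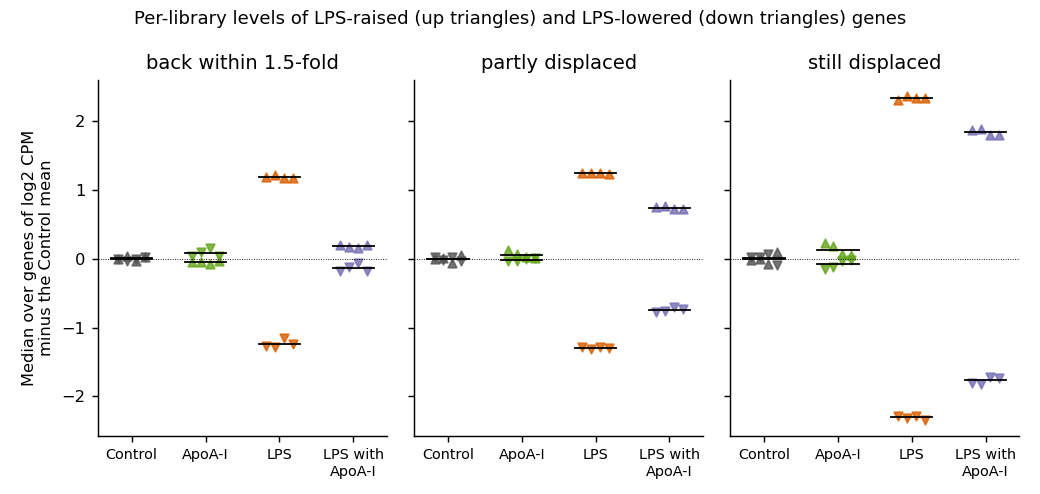
Each triangle is the median over a gene group of log2 CPM minus the Control mean in 1 library, upward for LPS-raised and downward for LPS-lowered genes, and bars are means of 4 libraries. Genes that are back lie at 0.18 and -0.14 in doubly treated libraries, partly displaced genes at 0.74 and -0.74, and still displaced genes at 1.83 and -1.77.

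Genes that were back had mostly changed modestly with LPS. Among genes LPS raised by 1 to 2 log2 units, 71 of 768 (9.24%) were back and 288 (37.5%) still displaced. From 2 to 3 log2 units 5 of 244 were back and 188 (77.0%) displaced. From 3 to 4 log2 units 107 of 117 (91.5%) were displaced, and above 4 log2 units 197 of 203 (97.0%), with no gene back in either band. LPS-lowered genes showed the same order: 54 of 1184 (4.56%) were back after a decrease of 1 to 2 log2 units, 7 of 481 after 2 to 3, 1 of 304 after 3 to 4, and none of 284 beyond 4. The largest LPS change among genes that were back was 2.40 log2 units for a raised and -3.05 for a lowered gene.

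**Figure D3:**
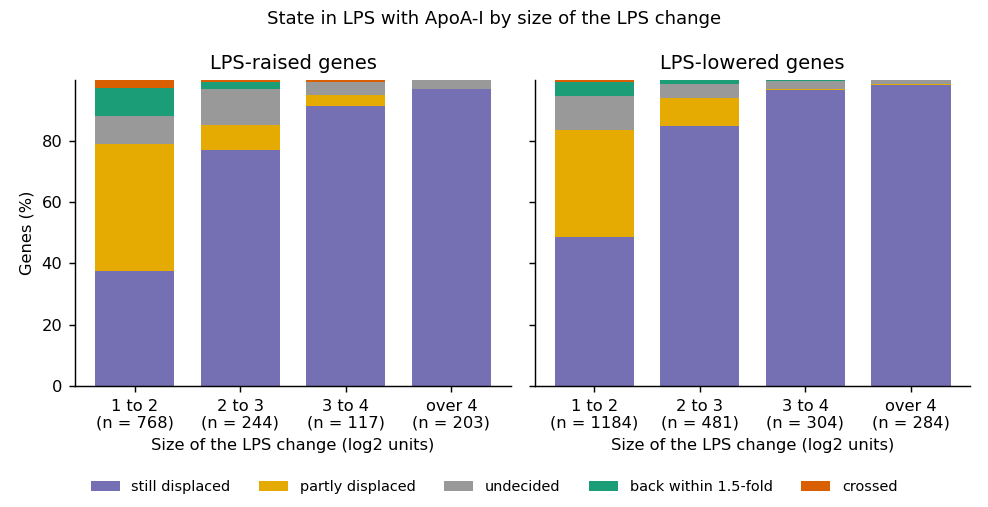
Stacked bars give the percentage of genes in each state in doubly treated cells, by the size of the log2 change in LPS cells, for LPS-raised (left) and LPS-lowered genes (right), with the number of genes under each bar. The still displaced share rises from 37.5% to 97.0% of raised and from 48.6% to 98.2% of lowered genes, and genes that are back are found mainly in the first bar of each panel. The fixed bounds of these states favour both patterns.

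In the genes most strongly moved by LPS, the median with both agents lay between the Control and LPS levels. The 203 genes that LPS raised by more than 4 log2 units had a median change of 6.02 in LPS cells and 4.72 in doubly treated cells. The 284 genes lowered by more than 4 had medians of -4.91 and -3.28. The LPS libraries chose these genes for their extreme values, so the comparison with LPS is a description. Over all LPS-moved genes the medians were 1.75 in LPS and 1.21 in doubly treated cells for the raised, and -1.91 and -1.42 for the lowered.

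Doubly treated cells lay nearer to LPS than to untreated cells for most of these genes. By the fitted changes, 962 of the 1332 LPS-raised genes were nearer to the LPS level and 370 (27.8%) nearer to Control. Taken singly, and by log2 CPM instead, the 4 doubly treated libraries placed 27.6% to 30.6% of the raised genes nearer to Control. Of the LPS-lowered genes, 511 (22.7%) were nearer to Control by the fitted changes, and 22.9% to 28.5% in single libraries by log2 CPM. The 4 libraries thus gave similar shares. Nearness was not counted under other scalings.

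The still displaced genes were 28.2% of the genes called against Control and 83.6% of those called past 1 log2 unit. The 780 raised ones had a median change of 2.40 log2 units in LPS and 1.92 in doubly treated cells (quartiles 1.38 and 3.17). Of these, 32 had no counts in Control, and the median stayed at 1.92 when Control was given 3 counts in all for each of them. Against LPS alone, 459 of the 780 were lower, 75 higher and 246 without a call, where 24.9% of all tested genes were lower and 26.4% higher. Among all 1332 LPS-raised genes, 947 were lower than in LPS cells and 75 higher. The LPS libraries helped to choose the still displaced genes for high levels, which favours lower calls. The bound on their doubly treated level works against lower calls, so the counts are a description. In untreated cells these genes held 3.88% ± 0.359 of all counts, in LPS cells 21.4% ± 0.911 and in doubly treated cells 15.5% ± 0.653 (SD, n = 4 each). Their median level was 5.26 TPM in Control, 27.4 TPM in LPS and 21.6 TPM in doubly treated cells.

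The 1557 still displaced LPS-lowered genes had a median change of -2.45 log2 units in LPS and -1.85 in doubly treated cells (quartiles -2.64 and -1.37). They went from 10.4% ± 0.454 of counts in Control to 1.74% ± 0.105 in LPS and 2.65% ± 0.135 in doubly treated cells (SD, n = 4 each). Against LPS alone, 679 were higher with ApoA-I, 82 lower and 796 without a call. Over all tested genes 26.4% were higher and 24.9% lower, and among all 2253 LPS-lowered genes 1174 were higher and 82 lower. The choice of the still displaced genes by LPS levels favours higher calls. The bound on their doubly treated level works against higher calls. The median level of the 1557 genes was 7.54 TPM in Control, 0.898 TPM in LPS and 1.59 TPM in doubly treated cells. A typical gene of this group thus remained low.

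The partly displaced genes were moderately expressed and had responded moderately. The 344 raised ones had a median of 1.24 log2 units in LPS and 0.75 in doubly treated cells. Of these, 308 were lower than in LPS cells (24.9% of all tested genes were). The 461 lowered ones had medians of -1.30 and -0.77, and 345 were higher than in LPS cells (26.4% of all tested genes were). The choice of these genes favours both directions. Among genes that crossed, the 24 raised by LPS had a median of 1.57 log2 units in LPS and -0.80 in doubly treated cells, and the 9 lowered by LPS had medians of -1.34 and 0.62.

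The share of counts was also compared on gene sets chosen by a contrast that leaves out the Control and doubly treated libraries. These were genes called more than 1 log2 unit higher (1289) or lower (2176) in LPS than in ApoA-I libraries. All 16 libraries still entered the filter, the scaling and the estimate of spread behind that contrast. The higher set held all 8 covarying genes, which were left out. Without them, the set held 7.15% to 8.24% of counts in the Control and 19.8% to 21.4% in the doubly treated libraries, 7.84% ± 0.501 against 20.2% ± 0.764 (SD, n = 4 each). No library of one group reached the range of the other, and the difference was 12.4 percentage points (two-sided exact permutation p = 0.0286; Benjamini-Hochberg adjusted over 6 tests of this kind, 0.0571). A lower p than 0.0286 cannot be had with 4 libraries a side. With the 8 genes the values were 15.7% ± 2.81 and 29.9% ± 1.89. The lower set fell from 14.0% ± 0.503 in Control to 4.88% ± 0.238 in doubly treated libraries (SD, n = 4 each; two-sided exact permutation p = 0.0286, adjusted 0.0571). LPS cells held 28.9% ± 1.22 in the higher and 2.73% ± 0.174 in the lower set, but their libraries chose these sets.

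**Figure D4:**
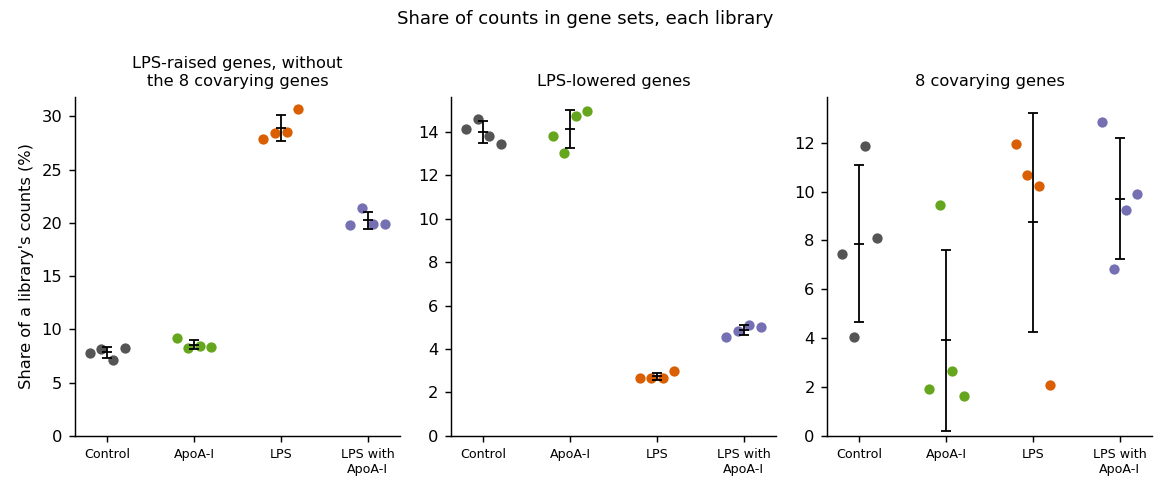
Points are single libraries and bars the mean ± SD of 4, as a percentage of the library's counts in genes higher (left, without the 8 covarying genes) or lower (middle) in LPS than in ApoA-I libraries, and in the 8 covarying genes (right). Doubly treated libraries hold 19.8% to 21.4% in the left panel and 4.57% to 5.11% in the middle panel, apart from all Control libraries, while the right panel overlaps.

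None of the 6 tests on single library measures passed 0.05 after adjustment, the count shares above included. The others concerned the 8 covarying genes, the concentration of counts and the number of genes detected. The 100 most abundant genes of each library held 33.8% ± 1.55 of counts in doubly treated and 29.6% ± 2.58 in Control libraries (SD, n = 4 each; two-sided exact permutation p = 0.0571, adjusted 0.0857). At equal depth, 13656 ± 40.6 genes were detected in doubly treated and 13873 ± 168 in Control libraries (SD, n = 4 each; two-sided exact permutation p = 0.114, adjusted 0.137). Replicates of the doubly treated group were slightly closer to each other, with a median SD of 0.09 log2 units per gene against 0.11 in Control, among genes of at least 5 CPM.

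Some genes were on in doubly treated cells and without counts in untreated ones. Among all listed genes, 57 were without a count in every Control library and had counts in all 4 doubly treated libraries, and 91 had this pattern with LPS alone. The highest of the 57 reached 12.5 CPM, whereas the highest of the 91 reached 230 CPM. In the reverse direction 69 genes had counts in every Control and in no doubly treated library, and 120 in no LPS library. A count of 0 over the doubly treated group allows up to 0.0539 CPM (3 counts), and over Control up to 0.0462 CPM, which covers counting error only.

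Genes that LPS had switched on or off were followed into the doubly treated cells. Of 35 genes with no counts in Control and at least 1 CPM in LPS cells, 27 had counts in all 4 doubly treated libraries and 12 reached 1 CPM there. Their median level went from 3.13 CPM in LPS to 0.605 CPM in doubly treated cells. Of 25 genes with at least 1 CPM in Control and no counts in LPS, 7 had counts in all 4 doubly treated libraries, 5 had none, and the median was 0.0929 CPM against 1.79 CPM in Control. The LPS levels chose both sets, so these values are a description.

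The largest increases from Control were in ENSRNOG00000000838 and ENSRNOG00000026805. ENSRNOG00000000838 had 417, 451, 325 and 341 CPM in the 4 doubly treated libraries and 2 counts in all over the Control libraries. The ratio of the groups was 12482 with a 95% counting interval of 3455 to 103077 (edgeR adjusted p = 5.44e-22), an exact Clopper-Pearson interval that covers counting error only. In LPS cells the gene stood at 900 ± 43.1 CPM, and the doubly treated level of 384 ± 60.1 CPM was lower (SD, n = 4 each; log2 change -1.23, SE 0.08, edgeR adjusted p = 2.68e-11). It remained one of the strongly expressed genes, with 480 ± 68.3 TPM in doubly treated cells (SD, n = 4).

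ENSRNOG00000026805 had 58.3, 60.0, 52.2 and 52.1 CPM in doubly treated libraries and 1 count over the Control libraries, a ratio of 3618 with a 95% counting interval of 649 to 142938 (edgeR adjusted p = 2.37e-20). Its level in LPS cells was 102 ± 4.37 CPM, above every doubly treated library (mean 55.7 ± 4.12 CPM, SD, n = 4 each; log2 change -0.88, SE 0.08, edgeR adjusted p = 6.61e-09). ApoA-I libraries without LPS held 4 counts of this gene in all and 2 of ENSRNOG00000000838.

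The largest decreases were in ENSRNOG00000063592 and ENSRNOG00000020281. Neither had counts in doubly treated libraries, so the size of each decrease has only a lower bound and their rank is not settled. On log2(TPM + 1) the changes were -2.68 and -3.12. ENSRNOG00000063592 had 10.3, 11.3, 11.6 and 5.58 CPM in Control and no counts in any doubly treated library, at least 180-fold lower when the empty group is given 3 counts in all (edgeR adjusted p = 3.17e-11). LPS libraries held 4 counts of it, so a difference between LPS and doubly treated cells was not detectable at this depth. ENSRNOG00000020281 had 15.1, 4.51, 8.60 and 9.54 CPM in Control and no counts in LPS or doubly treated libraries, at least 175-fold lower in the latter (edgeR adjusted p = 6.16e-06). ApoA-I libraries had 8.03 ± 1.43 CPM of the former and 17.1 ± 10.2 CPM of the latter (SD, n = 4 each), so both genes were expressed with ApoA-I alone.

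**Figure D5:**
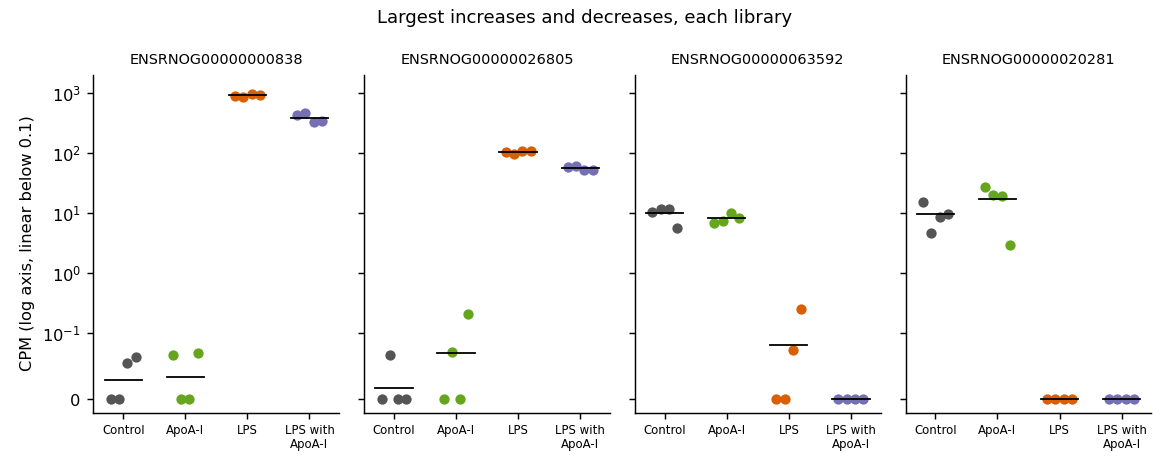
Points are CPM in single libraries and bars group means, on a log axis that is linear below 0.1 CPM, for the largest 2 increases (left) and the largest 2 decreases (right) in doubly treated against Control cells. Doubly treated libraries lie below LPS libraries but far above Control in the increases, and at 0 in the decreases.

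Part of the difference from Control was in genes that did not pass the same bounds with LPS alone. Missing a bound does not show that LPS moved a gene less. Of the 946 genes more than 1 log2 unit higher in doubly treated cells, LPS alone had raised 780 by as much, 105 by at most 1 log2 unit and lowered 4, and it had no call in 57. The 57 had a median change of 1.38 log2 units in doubly treated, 0.34 in LPS and 0.25 in ApoA-I cells. Of these, 34 were also called higher than in LPS cells (26.4% of all tested genes were). Of the 1851 genes more than 1 log2 unit lower, LPS alone had lowered 1557 by as much, 134 by less and raised 28, with no call in 132. The 132 had medians of -1.63 in doubly treated, -0.47 in LPS and -0.06 in ApoA-I cells, and 55 were also called lower than in LPS cells (24.9% of all tested genes were). Choosing both sets by their changes from Control favours such calls. The rest of each set was not shown to differ from LPS in that direction.

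A small group of genes lay past both reference levels, differing in the same direction from Control and from LPS by more than 1 log2 unit each. Above both lay 51 genes (0.428% of those tested) and below both 112 (0.941%). The 51 had a median change of 2.21 log2 units from Control and 1.38 from LPS, with medians over genes of 2.44 TPM in Control, 3.61 TPM in ApoA-I, 3.10 TPM in LPS and 9.84 TPM in doubly treated cells. In 50 of them all 4 doubly treated libraries were above all 8 Control and LPS libraries, a separation that their choice favours. LPS alone had raised 18 of the 51, lowered 3 and left 30 unmoved by the bound of 1 log2 unit. With ApoA-I alone, 6 of them were called higher and 1 lower by edgeR's test, where 2.5% of all tested genes were higher and 1.77% lower. That comparison shares the Control libraries that helped to choose the 51, so nothing is read from it. Whether ApoA-I acted differently on them in LPS-treated and resting cells was not tested here.

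The 112 genes below both levels had a median change of -1.76 log2 units from Control and -1.61 from LPS. Their median level was 3.79 TPM in Control, 3.29 TPM in ApoA-I, 1.86 TPM in LPS and 0.713 TPM in doubly treated cells. In 93 of them the doubly treated libraries were below all 8 Control and LPS libraries, which their choice again favours. By the bound of 1 log2 unit LPS alone had not moved 82 of them, though 38 of these were called at a smaller change; it had lowered 22 and raised 8. With ApoA-I alone 9 were called lower (1.77% of all tested genes were), against the same Control libraries. Together the 112 genes held 0.268% ± 0.00959 of Control counts and 0.0753% ± 0.00207 of doubly treated counts, against 0.185% ± 0.0102 in LPS (SD, n = 4 each). On log2(TPM + 1), which compresses low levels, 36 genes lay above (33 shared) and 34 below (27 shared). With library totals the counts were 57 (46 shared) and 105 (85 shared).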

How the data were processed

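A micro-scale column kit was used for the RNA, and a service company prepared the 16 libraries, per the labels' protocols. The deposited tables hold expected counts (the estimated counts that RSEM makes) and TPM, which corrects for gene length. RSEM 1.3.1, STAR 2.7.10b and cutadapt 1.8.1 are named in the submitters' processing notes, in no stated order. The notes also name mm10, a mouse build, although each of the 30560 identifiers is an Ensembl rat one. Which annotation was used is not given in the sources here, and an effect on single genes could not be checked.

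Expected counts (3.24% of values not whole, tolerance 0.005) were rounded. Among the 8 covarying genes 95.3% of values were not whole. filterByExpr (minimum count 10) kept 11902 genes. All 16 libraries were fitted together by group with TMM scaling and the quasi-likelihood test of edgeR 4.0.16 (R 4.3.3), with Benjamini-Hochberg adjustment over all tested genes and a threshold of 0.05. SEs are moderated Wald SEs. Equivalence used a margin of log2(1.5), with p-values adjusted in the same way. Log2 CPM used a prior count of 2. Alternatives used DESeq2 1.42.0 and limma 3.58.1. The test was tried on simulated data.

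The 8 covarying genes have at least 1000 mean CPM and correlate above 0.95, in deviations from group means, with the gene of highest mean CPM. Identifiers printed are the 2 largest increases and 2 largest decreases among called genes with at least 5 CPM in the higher group and groups that do not overlap. The 29 gene and marker lists could not be applied without symbols (RefSeq, GRCr8, 47357 genes, 0 with an Ensembl identifier). Members, lists, classes and tests were chosen with earlier results of these data known. ApoA-I against Control was used for values beside other results only.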

Additional observations from a re-analysis of the deposited data

Results flagged for a closer look

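Groups of 4 libraries were screened for a library whose gap to the nearest other, divided by the group's range, exceeds Dixon's 95% critical value. Of 18 groups with spread, 2 were picked out, and chance alone picks about 1 in 20. In LPS with ApoA-I replicate 2, genes higher in LPS than in ApoA-I libraries, the 8 covarying genes left out, held 21.4% of counts, above the other 3 doubly treated libraries. ENSRNOG00000026805 had 0.0663 CPM in Control replicate 2, which is 1 count, and none in the other Control libraries.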

How the results depend on the processing

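Of 560 recomputed values, 537 kept their direction, their side of the threshold or a size within the bounds set, none reversed and 23 moved. With library totals only, 2581 genes were called higher, 39 LPS-raised and 105 LPS-lowered genes were back, and the count shares differed by 10.03 and -11.8 percentage points. On log2(TPM + 1) with limma, 2297 genes were called higher, 505 by more than 1 log2 unit, 95 LPS-lowered genes were back, 413 LPS-raised genes still displaced, 70 genes past both levels (34 below), and the shares differed by 9.86 and -11.9 points. On log2(TPM + 0.1) the values were 2294 called higher, 43 LPS-raised genes back, and 9.90 and -12.3 points. The narrower margin (25%) and the margin of 2-fold gave 22 (11 raised, 11 lowered) and 675 (331 and 344) genes back. For values that moved under other scalings, the cause was not tested.

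Leaving out 1 of the 16 libraries at a time gave 7927 to 8337 calls, 118 to 146 genes back, 2306 to 2425 still displaced and 149 to 175 past both levels, and moved no count by over 1.5 times. Same-numbered Control and doubly treated libraries did not deviate together (correlations -0.01 to 0.03, 1 of 4 Control libraries closest to its own number). Pairs of other numbers had correlations of -0.04 to 0.03. This does not show that same-numbered libraries had separate origins, and a shared culture or batch was not tested. With the replicate block there were 8241 calls, 8186 of them shared with the fit without it. The covariate of the 8 genes was chosen after seeing the data. Low depth limits the undecided genes, whose median SE was 0.39 log2 units.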
